A study of Caenorhabditis elegans with 40 samples.

Results

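The yolk genes of *Caenorhabditis elegans* were followed through 8 groups of whole animals. The set held 7 genes, taken by name from the 41560 genes of the deposited tables: the 6 vitellogenin genes *vit-1* to *vit-6* and *rme-2*. Membership did not use any measured value, but earlier results of these data were known when the genes were chosen. All 7 genes were found in the tables, and all 7 passed the filter on low counts wherever they were measured.

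Vitellogenins are the large lipoproteins of yolk. In the hermaphrodite they are made in the intestine, secreted into the body cavity with their lipid cargo and taken up by growing oocytes, where RME-2, a receptor of the low-density lipoprotein receptor family, binds them at the oocyte surface. *vit-1* to *vit-5* encode the large yolk polypeptides, and *vit-6* encodes a precursor that is cleaved into the smaller polypeptides. The genes are switched on at the change from larva to adult, and yolk production is known to go on in old hermaphrodites after egg laying has declined. The *vit* genes are transcribed in the intestine, and *rme-2* in the oocytes.

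Wild-type N2 animals and *npr-8(ok1439)* animals, which carry a deletion in the gene of the neuropeptide receptor NPR-8 and are called *npr-8* mutants below, were grown on *E. coli* OP50 at 20°C or 25°C for at least 2 generations. Young adults (day 0 in the sample labels, 1-day-old in the methods of the study) and old adults (day 9) were collected, with 5 libraries in each of the 8 groups: young and old wild-type animals at 20°C and 25°C, and *npr-8* mutants of both ages at both temperatures. RNA came from pooled whole animals, so fewer cells of a type and less RNA per cell cannot be told apart, and yolk protein itself was not measured. The old animals were the remainder of the synchronized populations and were passed over a filter that retains adults.

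The libraries held 18690583 to 36883662 fragments on genes, with a median of 26451138. Levels below are fragments of a gene per 1000000 fragments on genes (CPM), scaled by the trimmed mean of M-values over all 40 libraries. A gene was called when the adjusted p of edgeR's quasi-likelihood test was under 0.05 and the fold change was at least 1 on the log2 scale. The summed level of a list took the genes with a value in all 40 libraries, which were 13 of 15 oocyte, 10 of 12 intestinal, 15 of 16 sperm, 21 of 22 molting and cuticle and 19 of 23 endocytosis genes. Library 1 of the young *npr-8* mutants at 25°C stood apart from the other 4 of its group: its scaling factor was 1.3091, the highest of the 40 libraries, and its oocyte marker list summed to 3790 CPM against 8906 to 9313 CPM in the others. Library 2 of the young wild-type animals at 20°C had the lowest level of 6 of the 7 yolk genes in its group. The *npr-8* gene was listed at 33 to 76 fragments in the wild-type libraries and at 53 to 93 in the *npr-8* mutant libraries with a gene table, and the extent of the deletion is not given in the sources used here, so these totals do not check the genotype labels.

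The tables marked 8 of the 280 values of the yolk genes as too deep to be quantified and listed them at 0. They were *vit-6* in 4 and *vit-2* in 1 of the young wild-type libraries at 25°C, and *vit-6* in 2 and *vit-2* in 1 of the young *npr-8* mutant libraries at 25°C, so that 6 libraries held a marked value. Those zeros stand for more fragments than could be quantified, not for absence: the only young wild-type library at 25°C with a listed *vit-6* value had 42620 CPM. The group means in the authors' tables count the marks as 0, and the authors' mean for *vit-6* in young wild-type animals at 25°C was 1301.57 FPKM, against 6507.84 FPKM in the listed library. Marked values were left out here, and *vit-2* and *vit-6* entered comparisons with these groups only in separate fits that are named where they are used.

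In the ce10 build the tables place *vit-1* on chromosome X at 7727849 to 7732892, *vit-2* at 5101011 to 5106047, *vit-3* at 3567444 to 3572553, *vit-4* at 3558879 to 3563978 and *vit-5* at 3403466 to 3408541 of the same chromosome. *vit-6* lies on chromosome IV at 8261158 to 8266353, and *rme-2* on chromosome IV at 5470019 to 5473079. *vit-3* and *vit-4* are thus neighbours. The intervals cover whole genes, exons and introns together. The vitellogenin genes are close paralogs, and how reads that fit several of them were assigned is not given in the sources used here. Differences between single *vit* genes are uncertain for this reason, and the sum over the family is given beside them.

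**Figure D1:**
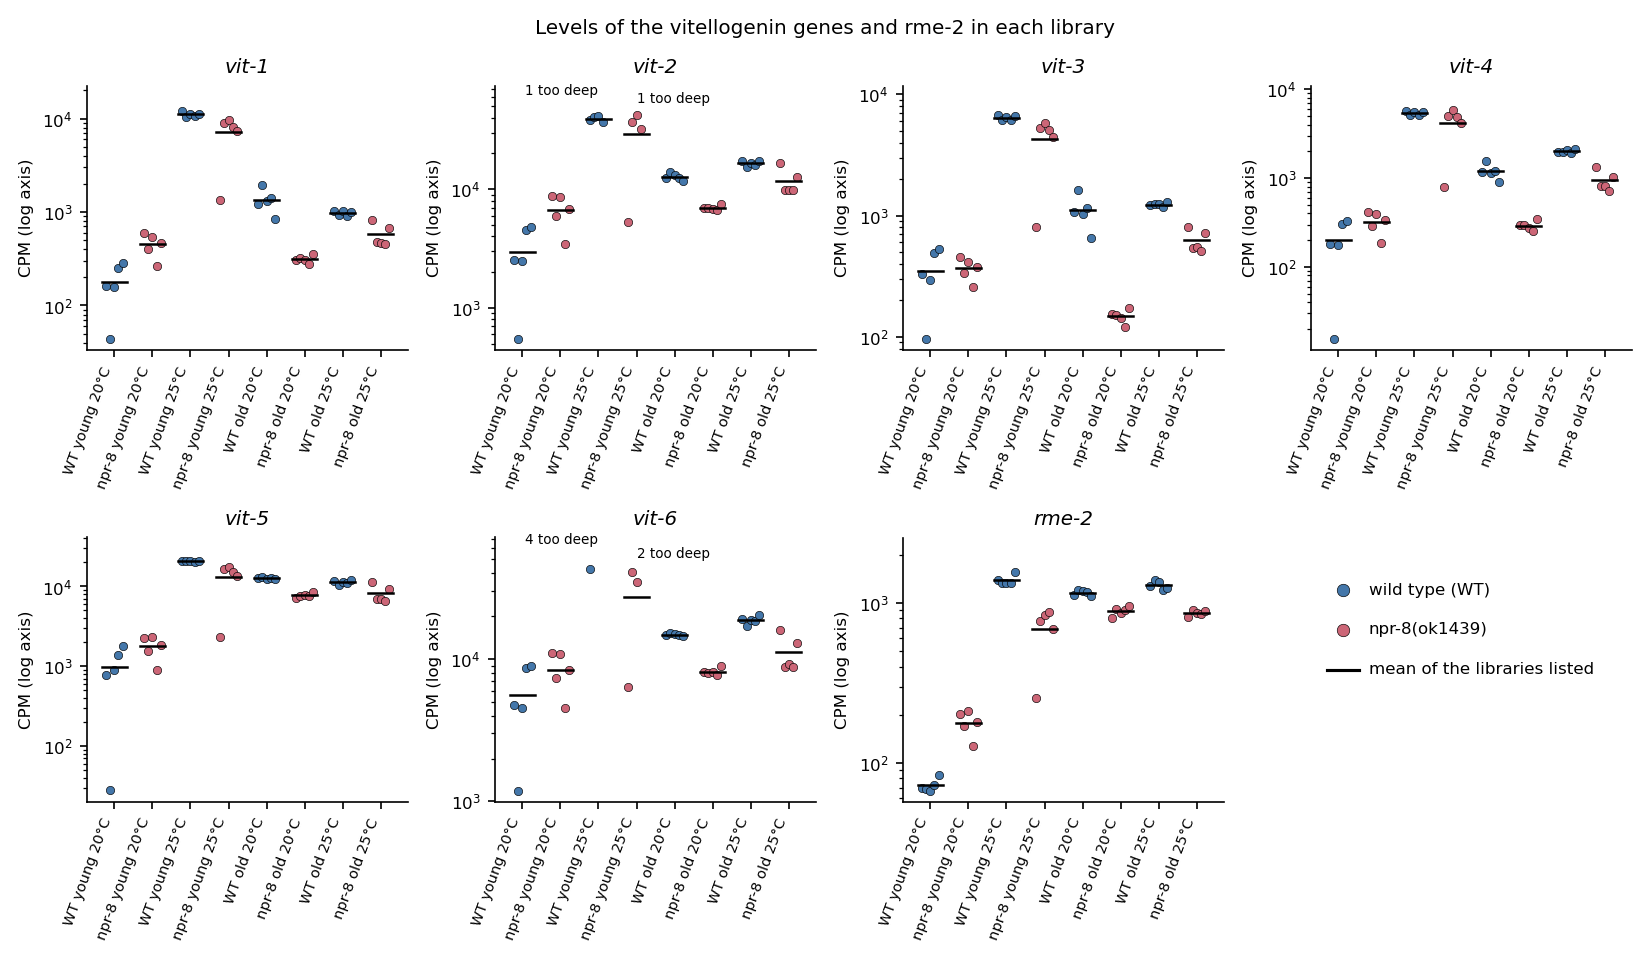
Level of each yolk gene in each library, in CPM on a log axis, with 1 panel per gene, wild-type libraries in blue, *npr-8* mutant libraries in red and a bar at the mean of the listed libraries; values marked too deep are counted above their group. Over the listed libraries all 7 genes are highest on average in the young wild type at 25°C, where *vit-6* has 1 listed library and *vit-2* has 4. The marked values leave the order of the 2 young groups at 25°C uncertain for *vit-2* and *vit-6*. *rme-2* has its lowest mean, 72.6 CPM, in the young wild type at 20°C.

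The receptor gene *rme-2* had 70.03, 68.9, 67.0, 72.4 and 84.5 CPM in the 5 young wild-type libraries at 20°C. The young *npr-8* mutant libraries at 20°C had 203, 170.0, 211, 128 and 181 CPM, all above every wild-type library. Old animals at 20°C were higher still, with 1125, 1203, 1183, 1167 and 1098 CPM in the wild type. At 25°C the young wild-type libraries were already at 1384, 1325, 1339, 1332 and 1565 CPM. In the wild type the level of *rme-2* in young animals at 25°C was thus at or above that of old animals, and the young animals at 20°C alone were low. The young *npr-8* mutant libraries at 25°C had 256, 774, 842, 874 and 692 CPM, of which library 1 was the lowest. In order of the means, *rme-2* was highest in young wild-type animals at 25°C (1389 CPM), then in old wild-type animals at 25°C (1286 CPM) and 20°C (1155 CPM), old *npr-8* mutants at 20°C (889 CPM) and 25°C (865 CPM), young *npr-8* mutants at 25°C (688 CPM), young *npr-8* mutants at 20°C (179 CPM) and young wild-type animals at 20°C (72.6 CPM). Neighbours in this order overlapped except at 3 steps: the old wild-type animals at 20°C lay above the old *npr-8* mutants, and each of the last 2 groups lay apart from the group above it.

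*vit-1* ranged most widely of the 7 genes, with a mean of 11060 CPM ± 637 (SD, n = 5) in the young wild type at 25°C and of 179 CPM ± 93.6 (SD, n = 5) at 20°C, a ratio of 61.7. The young wild-type libraries at 20°C had 159.9, 44.1, 158, 249 and 285 CPM. Those at 25°C had 12037, 10370, 11097, 10635 and 11160 CPM, so the groups lay far apart. Old wild-type libraries had intermediate levels, with 841 to 1926 CPM at 20°C and 904 to 1020 CPM at 25°C, and these ranges overlapped. In the old *npr-8* mutant libraries *vit-1* was at 278 to 354 CPM at 20°C and at 450.4 to 820.1 CPM at 25°C.

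*vit-3* and *vit-4* followed a similar course. *vit-3* had 327, 96.0, 292, 494 and 526 CPM in the young wild-type libraries at 20°C and 6775, 6127, 6515, 6140 and 6657 CPM in those at 25°C. Its lowest group was another: the old *npr-8* mutant libraries at 20°C had 155, 152, 144, 120.4 and 171 CPM, and the mean of the highest group was 43.4 times the mean of this group. *vit-4* had 181, 15.5, 176, 305 and 329.7 CPM in the young wild-type libraries at 20°C and 5668, 5096, 5550, 5078 and 5553 CPM in those at 25°C, a ratio of means of 26.7. In old wild-type animals the means were 1108 CPM ± 342 at 20°C and 1234 CPM ± 41.7 at 25°C for *vit-3*, and 1193 CPM ± 236 and 2001 CPM ± 89.9 for *vit-4* (SD, n = 5 each). The libraries of the 2 old wild-type groups overlapped for *vit-3* and did not for *vit-4*.

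*vit-5* was the gene with the widest spread among young wild-type libraries at 20°C, which had 787, 28.0, 901, 1393 and 1774 CPM, a ratio of 63.3 between the highest and the lowest. The young wild-type libraries at 25°C were even, at 20303 to 21069 CPM. The old wild-type libraries had 12241 to 12953 CPM at 20°C and 10486 to 11905 CPM at 25°C and these ranges did not overlap. The old *npr-8* mutant libraries had 7166 to 8456 CPM at 20°C and 6508 to 11237 CPM at 25°C. The ratio of its highest to its lowest group mean was 21.3.

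*vit-2* and *vit-6* had the narrowest range between groups of the 7 genes. *vit-2* had 2534, 548, 2490, 4510 and 4833 CPM in the young wild-type libraries at 20°C, and 37955, 40393, 41338 and 36899 CPM in the 4 listed libraries at 25°C. *vit-6* had 4741, 1192, 4543, 8650 and 8865 CPM in the former and 42620 CPM in the single listed library of the latter. Old wild-type libraries lay between, with means of 12770 CPM ± 815 at 20°C and 16538 CPM ± 858 at 25°C for *vit-2*, and of 14834 CPM ± 259 and 18735 CPM ± 1168 for *vit-6* (SD, n = 5 each). The ratio of the highest to the lowest group mean was 13.1 for *vit-2* and 7.61 for *vit-6*, each from the listed libraries alone.

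Over the whole family, *vit-1* to *vit-6* made up 1.02% ± 0.596 of all fragments on genes in the young wild type at 20°C and 1.75% ± 0.546 in the young mutants (SD, n = 5 each). The share was 4.46% ± 0.188 in old wild-type animals at 20°C, 5.08% ± 0.271 in those at 25°C, 2.60% ± 0.107 in old *npr-8* mutants at 20°C and 3.71% ± 0.881 in those at 25°C (SD, n = 5 each). In the young wild-type library at 25°C with no marked value the family held 10.2% of the fragments. The 3 young *npr-8* mutant libraries at 25°C with no marked value held 9.95%, 8.81% and, in library 1, 2.21%.

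The first comparison asked what warm growth changed in young wild-type animals. All 5 of the yolk genes that could be tested were higher at 25°C than at 20°C, where 21.2% of the 14995 genes tested were called higher and 34.9% lower. *rme-2* rose by 4.27 on the log2 scale (SE 0.0825, edgeR adjusted p = 2.59e-14), and its groups did not overlap. *vit-1* rose by 5.96 (SE 0.497, edgeR adjusted p = 1.66e-06), *vit-4* by 4.75 (SE 0.700, edgeR adjusted p = 0.000137), *vit-5* by 4.42 (SE 0.859, edgeR adjusted p = 0.000897) and *vit-3* by 4.23 (SE 0.430, edgeR adjusted p = 7.51e-06). The errors of the *vit* genes were several times that of *rme-2*, and the wide spread was in the libraries at 20°C. Without library 2 of the young wild-type animals at 20°C the log2 fold changes were 5.71 for *vit-1*, 3.98 for *vit-3*, 4.45 for *vit-4*, 4.11 for *vit-5* and 4.25 for *rme-2*. *vit-2* rose by 3.73 (SE 0.580, edgeR adjusted p = 0.000341) when the library that marks it was left out. For *vit-6*, each marked value was set to the most fragments that the tables of these groups list for any gene, called filling below. The rise of *vit-6* was then 2.87. Marked values may lie above the filled number, so filled fold changes with temperature or age may be too small in size. All filled values are the same number of fragments, and *vit-6* had 1 listed and 4 filled libraries in the young wild type at 25°C. The SE and p of filled fits thus do not measure the full spread between libraries.

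Marker genes of cell types and of molting also changed in this comparison. All 15 listed oocyte genes were higher at 25°C, among them *puf-5* by 4.94 and *oma-2* by 4.82 on the log2 scale, which encode RNA-binding proteins of the oocyte. The summed level of 13 oocyte genes was 985 to 1230 CPM in the young wild-type libraries at 20°C and 12770 to 13773 CPM in those at 25°C. In the list of molting and cuticle genes, 19 of 22 were lower at 25°C and 2 higher, and the collagen genes *sqt-1* and *rol-6* had log2 fold changes of -9.70 and -9.20. Of 16 sperm genes 15 were lower, and of 8 genes of body wall muscle 7. Of 12 intestinal markers, the tissue that makes yolk, 4 were lower and 8 were not called, near the 34.9% of all genes called lower. The summed level of 10 of these markers was 6176 to 7451 CPM at 20°C and 3668 to 4467 CPM at 25°C. The part of cell composition and of stage at collection in the rises of the yolk genes was not tested.

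In old wild-type animals 0 of 7 yolk genes passed both thresholds in edgeR or in DESeq2 between 25°C and 20°C, where 1.98% of 13697 genes were called higher and 4.25% lower. At an unadjusted p under 0.05 the edgeR count was 6 of 7, and by the adjusted p alone 5 of 7 (6 of 7 with DESeq2). *vit-4* was 0.73 higher at 25°C on the log2 scale (SE 0.119, edgeR adjusted p = 0.000536), *vit-2* 0.36 higher, *vit-6* 0.32 higher and *rme-2* 0.14 higher, while *vit-5* had a log2 fold change of -0.17 (SE 0.0436, edgeR adjusted p = 0.00319). *vit-1*, at -0.49 (SE 0.187, edgeR adjusted p = 0.0573), and *vit-3*, at 0.14 (SE 0.197, edgeR adjusted p = 0.592), did not pass. Of the 15 oocyte genes 0 were called in edgeR or DESeq2, with 9 at an unadjusted p under 0.05. The difference between the temperature effects of old and young animals was tested by the interaction in the wild type, and it was past both thresholds for all 5 genes tested, against 21.9% of 15629 genes called lower and 32.1% called higher. It was -6.43 on the log2 scale for *vit-1* (SE 0.493, edgeR adjusted p = 1.44e-09), -4.57 for *vit-5*, -4.11 for *rme-2* (SE 0.0887, edgeR adjusted p = 6.15e-22), -4.07 for *vit-3* and -4.003 for *vit-4*.

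With age at 20°C all 7 yolk genes rose in the wild type from young to old, where 26.7% of 15329 genes were called higher and 36.7% lower. *rme-2* rose by 4.04 on the log2 scale (SE 0.0772, edgeR adjusted p = 2.47e-14). *vit-5* rose by 3.72 (SE 0.833, edgeR adjusted p = 0.00208), the most of the *vit* genes, and *vit-6* by 1.44 (SE 0.462, edgeR adjusted p = 0.0148), the least. Between them lay *vit-1* at 2.94 (SE 0.483), *vit-4* at 2.60 (SE 0.649), *vit-2* at 2.13 (SE 0.499) and *vit-3* at 1.71 (SE 0.447), with edgeR adjusted p from 0.000271 to 0.00508. Without library 2 of the young animals the rises were smaller, 3.40 for *vit-5* and 1.17 for *vit-6*, with all 7 genes still past both thresholds. All 15 oocyte genes were called higher and 10 of 12 intestinal genes lower, and the summed level of 10 intestinal genes fell from 6176 to 7451 CPM in the young libraries to 1013 to 1126 CPM in the old. The *vit* genes thus rose while most markers of the tissue that makes them fell.

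At 25°C the *vit* genes went the other way with age. *vit-1* had a log2 fold change of -3.51 between old and young wild-type animals (SE 0.0565, edgeR adjusted p = 2.55e-18). *vit-3* had -2.38 (SE 0.0462, edgeR adjusted p = 2.49e-17) and *vit-4* -1.43 (SE 0.0476, edgeR adjusted p = 2.94e-14). These were the 3 calls among the 5 genes tested, where 15.4% of 13853 genes were called lower and 9.07% higher. *vit-5*, at -0.87 (SE 0.0468, edgeR adjusted p = 1.92e-11), stayed under the fold threshold, and *rme-2*, at -0.11 (SE 0.0533, edgeR adjusted p = 0.0753), passed neither. With the library that marks it left out, *vit-2* had -1.25 (edgeR adjusted p = 1.21e-11) and was called. With marked values filled, *vit-2* had -1.23 and *vit-6* -1.12, where 4 of the young *vit-6* values were the same filled number and 1 was listed. Of the 15 oocyte genes 0 were called in edgeR or DESeq2 (13 at an unadjusted p under 0.05), and 8 of 12 intestinal genes were lower.

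The genotype comparisons shared their wild-type groups with the comparisons above. In young animals at 20°C, *rme-2* was higher in *npr-8(ok1439)* than in wild-type animals by 1.30 on the log2 scale (SE 0.127, edgeR adjusted p = 2.88e-05), and the 5 libraries of each genotype did not overlap. *vit-1* was higher by 1.33 (SE 0.443, edgeR adjusted p = 0.0448). These 2 of 7 genes were called, where 4.4% of 14872 genes were called higher and 1.47% lower. The call of *vit-1* was held without wild-type library 2 (1.08) or 5 (1.57) or mutant library 4 (1.48). It was lost without any other single library, wild-type 1, 3 or 4 or mutant 1, 2, 3 or 5, with log2 fold changes from 1.21 to 1.48 and edgeR adjusted p from 0.0501 to 0.0924, and it was lost with no filter on low counts and with scaling by library size alone. *vit-2*, at 1.17 (SE 0.514, edgeR adjusted p = 0.113), *vit-5*, at 0.86, *vit-4*, at 0.68, *vit-6*, at 0.58, and *vit-3*, at 0.08, were not called in edgeR, while DESeq2 called 3 of the 7 genes. For *vit-3* the wild-type libraries spanned 96.0 to 526 CPM and the *npr-8* mutant libraries 257 to 457 CPM, wholly inside that span.

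The spread among the young libraries at 20°C was large for the *vit* genes and small for *rme-2*. In the wild type the ratio of the highest to the lowest library was 63.3 for *vit-5*, 21.3 for *vit-4*, 8.81 for *vit-2*, 7.44 for *vit-6*, 6.46 for *vit-1* and 5.47 for *vit-3*, and 1.26 for *rme-2*. The summed level of *vit-1* to *vit-6* was 8730, 1924, 8562, 15602 and 16611 CPM in libraries 1 to 5. The molting and cuticle list summed to 4654, 5985, 4654, 3916 and 4090 CPM in the same libraries, so that library 2 was lowest in yolk genes and highest in molting genes. In the *npr-8* mutant libraries the *vit* sum was 23458, 15817, 23134, 9590 and 18289 CPM and the molting sum 5453, 6841, 5483, 9357 and 6765 CPM, with library 4 lowest in the former and highest in the latter. Of the molting and cuticle list, 11 of 22 genes were called higher in *npr-8* mutants and 1 lower, and of the oocyte list 10 of 15 higher. The part of the stage of the animals in these differences was not tested.

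**Figure D2:**
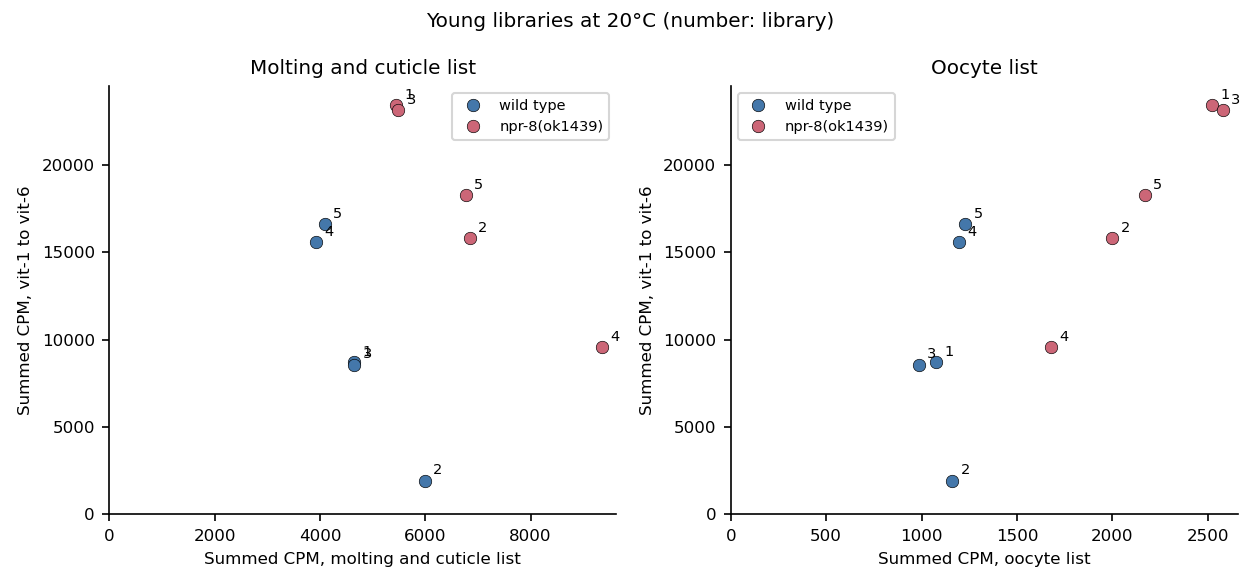
Summed CPM of *vit-1* to *vit-6* in each young library at 20°C against the summed CPM of the molting and cuticle list (left) and of the oocyte list (right), wild type in blue and *npr-8(ok1439)* in red, with the number of the library beside its point. Within each genotype the library with the lowest *vit* sum, at 1924 CPM in the wild type and 9590 CPM in *npr-8(ok1439)*, has the highest molting sum, and every *npr-8* mutant library lies to the right of the wild type in the oocyte panel.

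In young animals at 25°C the signs turned. All 5 genes tested had negative log2 fold changes in *npr-8* mutants, but 0 passed both thresholds in edgeR, with 1 at an unadjusted p under 0.05 and 1 called with DESeq2, where 14.4% of 13943 genes were called higher and 2.84% lower. *rme-2* was at the edge of the threshold, with -0.997 (SE 0.260, edgeR adjusted p = 0.00614), and was called in 8 of the 10 fits without 1 library (-1.01 to -1.10; not without wild-type library 5 or mutant library 1), with RLE scaling and with DESeq2 (both -1.06). Without library 1 of the *npr-8* mutants it had -0.79 (SE 0.0685, edgeR adjusted p = 2.65e-08). The remaining 4 *npr-8* mutant libraries, at 692 to 874 CPM, lay below all 5 wild-type libraries. Without library 1, *vit-5* had -0.39, *vit-1* -0.36 and *vit-3* -0.32, with edgeR adjusted p from 8.34e-05 to 0.00049, and *vit-4* -0.10 (edgeR adjusted p = 0.216), none past the fold threshold. With all libraries the same genes had -0.65, -0.62, -0.58 and -0.36, with edgeR adjusted p from 0.166 to 0.416. *vit-2* had -0.37 and *vit-6* -0.34 with marked values filled, and neither was called. Both genotypes held the same filled number, for *vit-6* in 4 wild-type and 2 mutant libraries, so these fits cannot show a difference between the filled libraries. Other lists moved in this comparison: 13 of 15 sperm genes tested and 10 of 22 molting and cuticle genes were higher in *npr-8* mutants, and 2 of the latter lower. The oocyte list had a median of -0.709 on the log2 scale against 0.064 over all genes, with 0 of 15 called in edgeR, 14 at an unadjusted p under 0.05 and 1 called with DESeq2. Their part in the levels of the yolk genes was not tested.

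The genotype effects on *rme-2* in young animals differed between the temperatures. The interaction was -2.32 on the log2 scale for *rme-2* (SE 0.284, edgeR adjusted p = 9.23e-07) and -1.98 for *vit-1* (SE 0.574, edgeR adjusted p = 0.00729), where 5.36% of 15459 genes were called lower and 16.1% higher. Without library 1 of the young *npr-8* mutants at 25°C these were -2.12 and -1.72, both still called. *vit-5* had -1.54 (edgeR adjusted p = 0.131), *vit-4* -1.07 and *vit-3* -0.69, none called. *vit-2* had -1.57 with marked values filled (SE 0.631, edgeR adjusted p = 0.0445), which was called, and -1.61 with the libraries that mark it left out (SE 0.702, edgeR adjusted p = 0.0679), which was not. *vit-6* had -0.95 with marked values filled, which were the same number in both genotypes, and was not called. Of the oocyte list, 14 of 15 genes had a called negative interaction, with *puf-5* at -2.83. The temperature effect within young *npr-8* mutants was smaller for *rme-2*, which rose by 1.96 (SE 0.266, edgeR adjusted p = 2.11e-05), than in the wild type. *vit-1* rose there by 3.98, *vit-4* by 3.69, *vit-3* by 3.54 and *vit-5* by 2.89, all 5 called, where 13% of 14881 genes were called higher and 26.1% lower. With marked values filled, *vit-2* rose by 2.15 and *vit-6* by 1.93.

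In old animals at 20°C every yolk gene had a lower mean in *npr-8(ok1439)* than in wild-type animals, and 3 of 7 were called, where 9.5% of 13000 genes were called lower and 10.9% higher. *vit-3* had a log2 fold change of -2.78 (SE 0.234, edgeR adjusted p = 4.84e-06), with 1073, 1616, 1031, 1159 and 659.5 CPM in the wild type against 120.4 to 171 CPM. *vit-1* had -1.99 (SE 0.205, edgeR adjusted p = 2.07e-05), with 1228, 1926, 1310, 1421 and 841 CPM in the wild type against 304, 321, 304, 278 and 354 CPM. *vit-4* had -1.91 (SE 0.149, edgeR adjusted p = 2.41e-06), with 1184, 1553, 1134, 1200 and 893 CPM in the wild type against 297, 296, 272, 256 and 342 CPM. In none of these 3 genes did the groups overlap. The abundant *vit-2* (-0.75, SE 0.0470), *vit-6* (-0.75, SE 0.0423) and *vit-5* (-0.59, SE 0.0440) and *rme-2* (-0.26, SE 0.0423) were also lower by the adjusted p alone, from 9.75e-13 to 1.08e-05 in edgeR, and under the fold threshold. The differences were thus unequal among these paralogs, and the values of single genes depend on how reads were assigned between paralogs.

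That comparison was made between tables of 2 kinds. The old *npr-8* mutant libraries at 20°C were given by transcript, and their fragments were summed to genes, with 12445 of 13851 genes (89.8%) matched. *vit-1* and *vit-3* were each matched to the 1 transcript with the gene's fragments in the wild-type libraries that both tables hold, and the other 5 genes by accession. The authors' mean there was 61.5 FPKM for *vit-1*, 31.9 FPKM for *vit-3* and 399 FPKM for *rme-2*. Other listed genes also differed between these groups: 16 of 20 molting and cuticle genes were lower, with a median of -1.33 on the log2 scale, and 2 of 5 genes of body wall muscle. Of 10 intestinal genes 5 were lower, their summed level being 500 to 584 CPM against 1013 to 1126 CPM in the wild type. All 15 of the sperm genes tested were higher in *npr-8* mutants, with a summed level of at most 44.8 CPM in the wild-type libraries and of 189 to 196 CPM in the mutant libraries. In the wild type 8 of 15 summed sperm genes had a mean under 1 CPM, so their fold changes start from very low levels. Between the old wild-type groups 9 of 16 sperm genes passed the filter on low counts, so others were tested here only through the mutants. Of 13 oocyte genes 0 were called in edgeR or DESeq2 (10 at an unadjusted p under 0.05). The part of these genes and of cell composition in the levels of the yolk genes was not tested.

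At 25°C the old *npr-8* mutants again had lower means of all 7 genes. *vit-4* was called, at -1.02 (SE 0.136, edgeR adjusted p = 4.67e-05), where 3.5% of 14380 genes were called lower and 10.1% higher. *vit-3* had -0.91 (SE 0.110, edgeR adjusted p = 1.37e-05), *vit-1* -0.69, *vit-6* -0.68, *rme-2* -0.50 (SE 0.0524, edgeR adjusted p = 7.42e-07), *vit-2* -0.43 and *vit-5* -0.40, all past the adjusted p alone. The *npr-8* mutant libraries fell apart in yolk genes: library 1 had 16556 CPM of *vit-2* and library 5 had 12724 CPM, against 9819, 9799 and 9767 CPM in the other 3, while *rme-2* was even at 821 to 909 CPM. Without library 1, *vit-3* (-1.02) and *vit-4* (-1.17) were both called. The call of *vit-4* was lost when mutant library 2 (-0.981), 3 (-0.974) or 4 (-0.941) was left out, and with library size alone (-0.927). *rme-2* was at 1202 to 1387 CPM in the wild type, and its groups did not overlap. Of the sperm genes 14 of 15 tested were higher in *npr-8* mutants, with a median of 2.998 on the log2 scale and a summed level of 93.1 to 106 CPM against 27.1 to 28.4 CPM in the wild type. In the wild type 12 of 15 summed sperm genes had a mean under 1 CPM, and some genes passed the filter on low counts only through the mutants. The count and the median of the sperm list thus rest on very low wild-type levels. Of 12 intestinal genes 1 was lower, of 22 molting and cuticle genes 2, and of 15 oocyte genes 0 were called in edgeR or DESeq2 (13 at an unadjusted p under 0.05). Their part in the levels of the yolk genes was not tested.

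Between the temperatures, the genotype effect in old animals differed for *vit-3*, with an interaction of 1.85 on the log2 scale (SE 0.251, edgeR adjusted p = 3.11e-05), and for *vit-1*, with 1.28 (SE 0.259, edgeR adjusted p = 0.00112), where 4.65% of 13433 genes were called higher and 2.61% lower. *vit-4* had 0.87 (edgeR adjusted p = 0.0036) and *rme-2* -0.26 (edgeR adjusted p = 0.00249), both under the fold threshold. *vit-2* had 0.30, *vit-5* 0.17 and *vit-6* 0.04. Within old *npr-8* mutants *vit-3* was higher at 25°C than at 20°C by 2.05 (SE 0.147, edgeR adjusted p = 1.63e-06) and *vit-4* by 1.67 (SE 0.163, edgeR adjusted p = 1.93e-05), the 2 of 7 genes called, where 3.86% of 13041 genes were called higher and 6.07% lower. *vit-1* had 0.86, *vit-2* 0.72, *vit-6* 0.43 (edgeR adjusted p = 0.0504), *vit-5* 0.06 and *rme-2* -0.06.

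With age at 20°C the *npr-8* mutants showed the rise of *rme-2*, by 2.47 (SE 0.123, edgeR adjusted p = 7.35e-09), and of *vit-5*, by 2.27 (SE 0.242, edgeR adjusted p = 1.13e-05). *vit-3* was lower with age, at -1.16 (SE 0.157, edgeR adjusted p = 5.88e-05), where 28.1% of 13698 genes were called higher and 39% lower. With RLE scaling and with DESeq2 *vit-3* had -0.893 and was not called, and these scalings also moved the median of all genes, from -0.282 to -0.0169 with RLE. *vit-1* (-0.38), *vit-2* (0.21), *vit-6* (0.11) and *vit-4* (0.01) were not called, and the young and old libraries of *vit-2* and *vit-6* overlapped. At 25°C *vit-1* (-3.62, SE 0.426), *vit-3* (-2.76, SE 0.397) and *vit-4* (-2.13, SE 0.392) were lower in old than in young *npr-8* mutants, with edgeR adjusted p from 5.53e-06 to 0.000277, where 23.7% of 14656 genes were called lower and 9.98% higher. *vit-5* (-0.67) and *rme-2* (0.34) were not called. With marked values filled, *vit-2* had -1.34 and *vit-6* -1.51, both called.

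**Figure D3:**
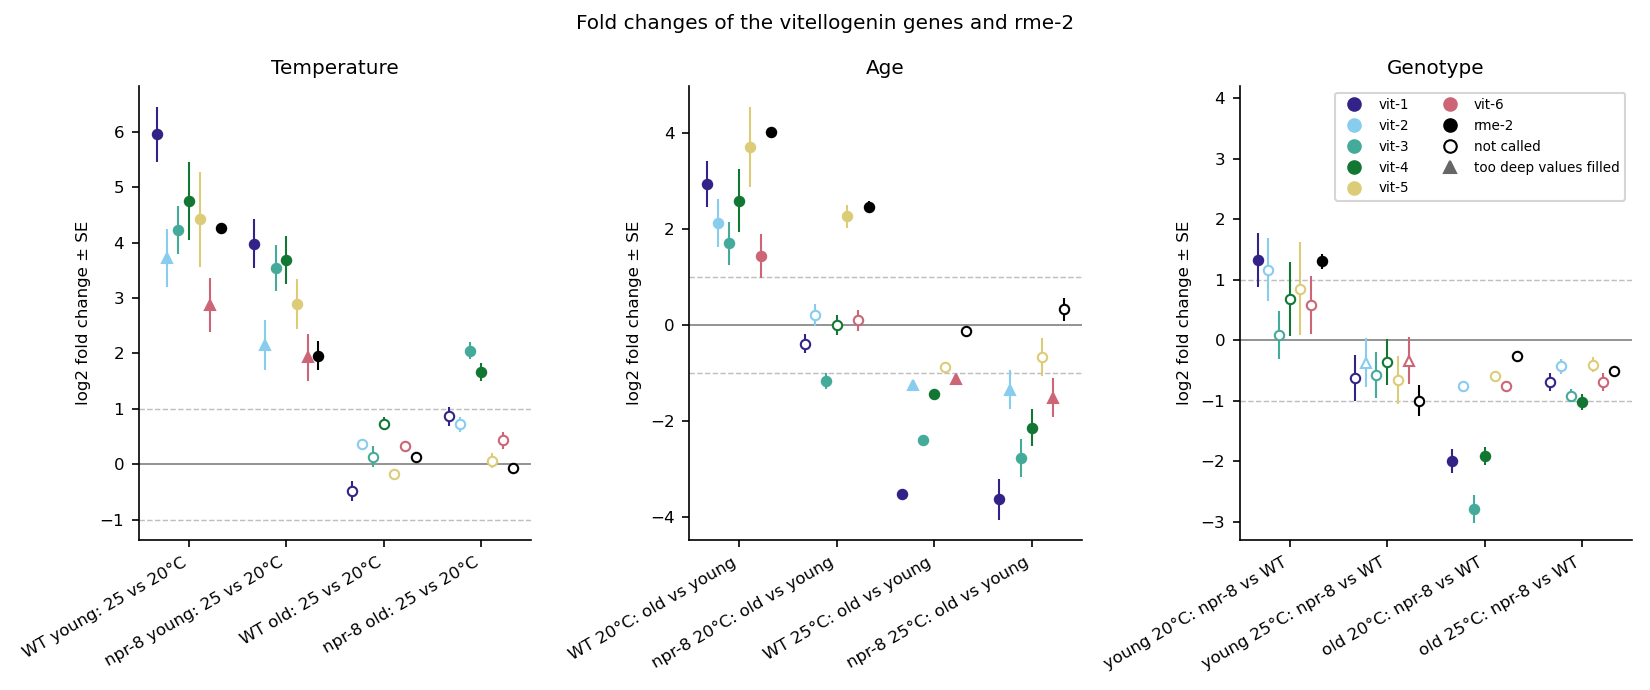
Log2 fold change of each yolk gene with its standard error in the 12 comparisons, by temperature (left), age (middle) and genotype (right); filled points passed both thresholds, open points did not, triangles come from fits with values marked too deep filled, and dashed lines mark a log2 fold change of 1 in either direction. The errors of the triangles do not measure the full spread between libraries. In the left panel the young groups lie between 1.93 and 5.96, the old wild type between -0.49 and 0.73 and the old *npr-8* mutants between -0.06 and 2.05. In the right panel *vit-3*, *vit-1* and *vit-4* of old animals at 20°C lie lowest, at -2.78, -1.99 and -1.91.

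Levels of different genes were compared per length, with the authors' FPKM. In all 10 young libraries at 20°C *vit-6* had the highest FPKM of the 7 genes and *vit-2* the next. In old animals at 20°C *vit-5* came first, in 4 of 5 wild-type and in 5 of 5 *npr-8* mutant libraries. At 25°C the old wild-type libraries all had the order *vit-6*, *vit-2*, *vit-5*, *rme-2*, *vit-4*, *vit-3*, *vit-1*, and the old *npr-8* mutant libraries the same order but with *vit-2* before *vit-6*, in 5 of 5. In 2 young libraries at 25°C, wild-type library 4 and *npr-8* mutant library 3, the FPKM of *rme-2* per fragment, relative to that of the *vit* genes, was 0.559 and 0.601, against 2.05 to 2.22 in the other 38 libraries, so the length correction of these 2 differs. The receptor gene had more FPKM than *vit-1*, *vit-3* and *vit-4* in all 20 old libraries, and less than every listed *vit* gene in all 10 young libraries at 25°C.

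The make-up of the vitellogenin transcripts shifted with age at 20°C. *vit-6* held 52.4% ± 3.74 of the summed *vit* FPKM in young wild-type animals and 30.8% ± 0.952 in old ones (SD, n = 5 each). *vit-5* went from 9.29% ± 4.32 to 31.8% ± 1.45, both as mean and SD with n = 5, and in *npr-8* mutants from 10.4% to 11.4% over the young libraries to 34.5% to 36.1% over the old. The libraries of the young and old groups did not overlap in either share. *vit-2* stayed between mean shares of 28.6% and 38.0% over the 8 groups. *vit-1* held 9.11% in the young wild-type library at 25°C without a marked value and 7.97% ± 0.119 in 3 such *npr-8* mutant libraries, against means of 1.33% to 3.08% in the 6 other groups. *vit-3* held 0.688% ± 0.0672 in old *npr-8* mutants at 20°C (SD, n = 5), the lowest mean share of any *vit* gene in any group. The combined share of *vit-3*, *vit-4* and *vit-5* was 37.6% ± 0.779 in the old wild type and 37.4% ± 0.441 in the old mutants at 20°C (SD, n = 5 each), so that the libraries of the 2 genotypes overlapped in this share, most of which was *vit-5*. The summed level of these 3 genes did not overlap, with 14074 to 16122 CPM in the wild type and 7618 to 8969 CPM in the mutants. Shares within a library do not depend on its scaling.

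**Figure D4:**
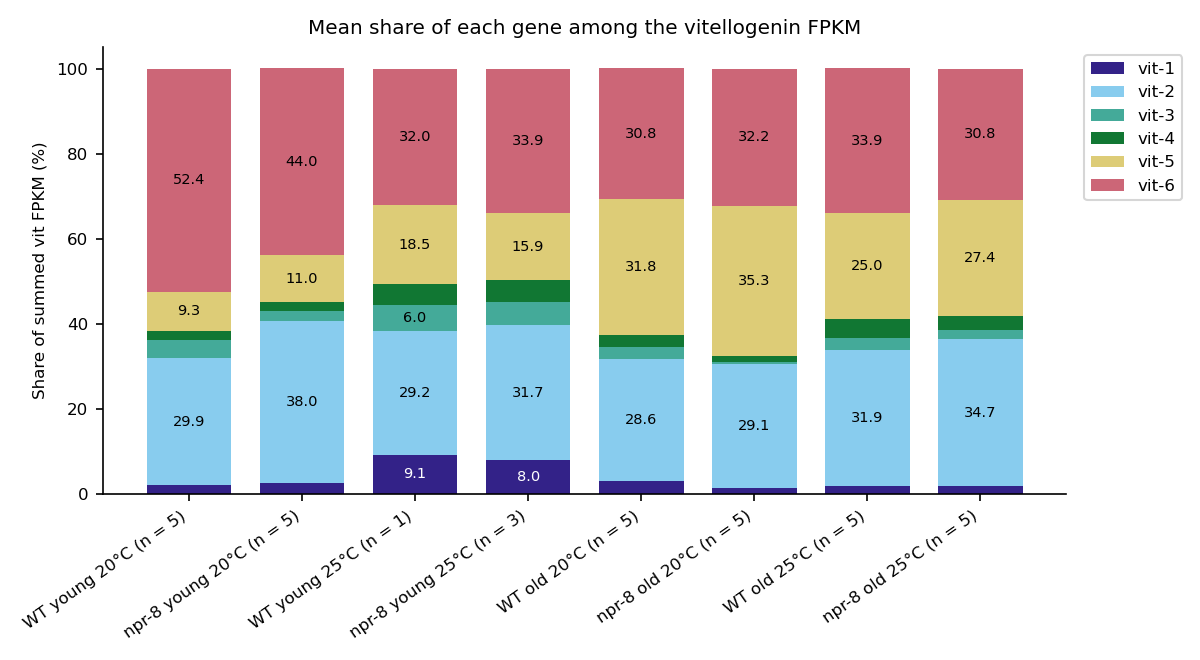
Mean share of each vitellogenin gene in the summed *vit* FPKM of a library, in percent, for the 8 groups, from libraries with no *vit* value marked too deep (n below each bar). *vit-6* falls from 52.4% in young wild-type animals at 20°C to 30.8% in old ones, and *vit-5* rises from 9.29% to 31.8%.

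The ratio of the vitellogenin sum to *rme-2* in CPM was 139 ± 73.8 in young wild-type animals at 20°C (SD, n = 5) and 74.8 to 116 over the young mutant libraries at 20°C. It was 37.9 ± 0.921 in old wild-type animals at 20°C and 39.7 ± 3.86 at 25°C, and 26.6 ± 1.37 and 38.6 ± 11.2 in the matching *npr-8(ok1439)* groups (SD, n = 5 each). At 20°C the old mutant libraries, at 24.9 to 28.5, lay below all 5 old wild-type libraries, whose median was 37.5.

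Genes taken to act before and after the yolk proteins were read from 4 lists. Of 20 regulators of *vit* transcription, 3 were higher and 5 lower in young wild-type animals at 25°C than at 20°C, where 21.2% of all genes were higher and 34.9% lower. The median of the list was -0.609 on the log2 scale and that of all genes -0.145. *ceh-60*, a homeobox activator of *vit* genes, had a log2 fold change of -1.85, *lin-29*, which acts at the change from larva to adult, of -1.84, and the insulin receptor gene *daf-2* of 1.59. With age at 20°C in the wild type 3 regulators were higher and 8 lower, where 26.7% of all genes were higher and 36.7% lower, with *lin-29* at -2.97 and *rict-1*, of the TORC2 kinase complex, at 1.96. For the genotype, *mab-3*, a repressor of *vit* genes in males, was the 1 call among 20 genes in young animals at 20°C (1.496) and in old animals at 25°C (1.48). Of all genes 4.4% and 10.1% were called higher in these 2 comparisons. The nuclear receptor gene *nhr-25* was the 1 call in young animals at 25°C (-1.36), where 2.84% of all genes were called lower. Single calls among 20 genes are thus near or below the share of all genes. In old animals at 20°C 0 of 14 were called for the genotype in edgeR or DESeq2 (14 at an unadjusted p under 0.05), and in old wild-type animals 0 of 20 between the temperatures (12 at an unadjusted p under 0.05).

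The list for lipoprotein assembly and secretion had 18 genes, of which 14 were in the tables. In young wild-type animals 1 was higher and 2 were lower at 25°C, smaller shares than the 21.2% and 34.9% of all genes: *pod-2*, acetyl-CoA carboxylase, had a log2 fold change of 1.06, *fat-7*, a stearoyl-CoA desaturase, of -1.30, and *dsc-4*, the microsomal triglyceride transfer protein that loads lipid onto lipoproteins, of -1.06. With age in the wild type *dsc-4* had -2.58 at 20°C, where all 7 yolk genes were higher, and -1.38 at 25°C. Of the 14 genes 5 were lower with age at 20°C and 2 at 25°C, where 36.7% and 15.4% of all genes were lower. In *npr-8* mutants *fat-7* was lower than in the wild type, with -1.29 in young animals at 20°C, -3.59 in old animals at 20°C and -3.86 in old animals at 25°C, where *lbp-8*, a lysosomal lipid chaperone, had -2.28. These were the only calls among the 14, 11 and 14 genes tested, where 1.47%, 9.5% and 3.5% of all genes were called lower. The medians of the list were -0.068, -0.037 and -0.294 on the log2 scale. In young animals at 25°C 0 of 14 were called for the genotype in edgeR or DESeq2 (3 at an unadjusted p under 0.05).

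Whether each of the 23 genes listed for receptor-mediated endocytosis acts on RME-2 or yolk in the oocyte was not tested. Of these genes, 4 were higher and none lower in young wild-type animals at 25°C than at 20°C, where 21.2% of all genes were higher and 34.9% lower. *sand-1* rose by 1.80, *cup-5* by 1.52, *vps-35* by 1.19 and *rme-6* by 1.12 on the log2 scale, and all 4 act on endosomes or lysosomes. With age at 20°C in the wild type *sand-1* rose by 2.11 and *cup-5* by 1.59, and *cup-4*, which acts in coelomocytes, had -1.30. These were the only calls among the 23 genes, where 26.7% of all genes were higher and 36.7% lower. In the 4 genotype comparisons 0 of the 19 to 23 genes tested were called in edgeR or DESeq2, with 10 and 12 at an unadjusted p under 0.05 in young animals at 20°C and 25°C, and 13 and 18 in old animals. The summed level of 19 genes of the list was 2119 to 2495 CPM in young wild-type libraries at 20°C and 3096 to 3225 CPM at 25°C, a far smaller step than that of *rme-2*.

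The list for yolk breakdown had 16 genes, which include proteases, lipases and lysosomal proteins. Whether these genes act on yolk or its lipid was not tested, and *asp-1* is also on the list of intestinal markers. Of the 16 genes, 4 fell between 20°C and 25°C in the old wild type and none rose, where 4.25% of all genes were lower. The lipase genes *lipl-1* and *lipl-3* had log2 fold changes of -2.46 and -1.79, and the cathepsin B-like protease genes *cpr-5* and *cpr-1* of -1.80 and -1.69, in the comparison in which 0 of 7 yolk genes were called. In old *npr-8* mutants at 25°C *cpr-5* had -2.13 against the wild type, *cpr-1* -1.96 and *cpr-4* -1.49, and 0 of 16 were called higher, where 3.5% of all genes were lower and 10.1% higher. With age at 25°C in the wild type 8 of 16 were lower and 1 higher, where 15.4% of all genes were lower and 9.07% higher, with *asp-1*, an aspartyl protease, at -2.91.

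Among 8349 genes with a mean of at least 10 CPM, the profiles most like *rme-2* over all 40 libraries, by Pearson's r of log2(CPM + 1), were those of *gfat-2* (0.998), *egg-1* (0.997), *cbd-1* (0.996), *egg-5* (0.995) and *lip-1* (0.994). *egg-1* and *cbd-1* encode proteins of the oocyte surface and eggshell. The points share libraries and fall into groups, so the values only describe the profiles. The profile most like the mean of the *vit* genes, over the 34 libraries with no marked value, was that of *F59D8.3* (0.932), an ncRNA in RefSeq. Its interval in the tables is identical to that of *vit-4*. Its fragments are listed apart, with a mean of 30.2 CPM, and how reads were divided between it and *vit-4* is not given in the sources used here. *F59D8.3* was followed by the collagen gene *col-143* (0.917), *acl-4* (0.909), *F55B11.3* (0.901) and *D1054.11* (0.891), named *ule-3* in RefSeq. Among the 7 genes themselves r ran from 0.502, between *vit-3* and *rme-2*, to 0.977, between *vit-2* and *vit-6*. *rme-2* was most like *vit-5* of the *vit* genes (0.89, 40 libraries) and *vit-1* was most like *vit-3* (0.954, 40 libraries).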

How the data were processed

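The authors made the tables with Cuffdiff, on reads aligned to the ce10 build (HISAT2 in the methods of the study; the submitters' processing notes name Bowtie2 2.3.4 and Cufflinks 2.2.1), from stranded poly(A) libraries. Each deposited gene table held expected counts, that is, fragments per gene and library before scaling, and FPKM as scaled by the authors within the table. For old *npr-8* mutants at 20°C the authors' values were per transcript, and they were summed to genes here. The 12 columns of fragments scaled by the authors were not used, nor the authors' log2 fold changes and p-values. The numbers of the libraries come from the tables and only name them.

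Expected counts were rounded to whole numbers, filtered with filterByExpr (minimum count 10, minimum total 15), scaled by TMM and tested with edgeR 4.0.16 in R 4.3.3 (quasi-likelihood F test, robust, two-sided, each comparison fitted on its own 2 groups and each interaction on 4), with Benjamini-Hochberg adjustment over all genes tested. Thresholds were an adjusted p of 0.05 and a log2 fold change of 1. The SE is the log2 fold change over the square root of F. Alternatives were RLE factors, library size alone, no filter, DESeq2 1.42.0, limma 3.58.1 on log2(FPKM + 1), the replicate number as a block, yolk genes left out of the scaling, marked values filled or the libraries that mark *vit-2* left out (both chosen after seeing the data), and each library left out. The fits were tested on simulated data in which all genes had the same dispersion and no library stood apart. The *vit* genes of some groups spread more widely, and the simulation did not cover such spreads. No 2 libraries of a group agreed within sampling noise. Nothing in the sources used here says whether libraries came from separate cultures, so p-values measure the spread between these libraries.

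The yolk genes and the lists were chosen with earlier results of these data known. The text names all 7 yolk genes, up to 4 called genes of each list per comparison by the size of the change, and the 5 genes most like *rme-2* and most like the mean of the *vit* genes.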

Additional observations from a re-analysis of the deposited data

Results flagged for a closer look

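In 52 sets of 5 libraries, 5 held a library farther from the others than Dixon's 95% criterion (0.71 of the range) allows, where chance gives about 1 in 20 sets. Library 1 of the young *npr-8* mutants at 25°C was low in 3 of them: 1341 CPM of *vit-1*, 802.3 CPM of *vit-3* and 2358 CPM of *vit-5*. Library 5 of the old *npr-8* mutants at 20°C was high in *vit-2*, at 7502 CPM, and library 5 of the young wild-type animals at 25°C was high in *rme-2*, at 1565 CPM.

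Effects that differed between groups by the edgeR interaction were as follows, on the log2 scale. The effect of temperature differed between old and young wild-type animals for *vit-1* (-6.426), *vit-5* (-4.574), *rme-2* (-4.115), *vit-3* (-4.068) and *vit-4* (-4.003). The effect of the genotype differed between the temperatures in young animals for *rme-2* (-2.318) and *vit-1* (-1.982). In old animals it differed, by the adjusted p, for *vit-3* (1.845), *vit-1* (1.279), *vit-4* (0.869) and *rme-2* (-0.264).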

How the results depend on the processing

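The counts of yolk genes called changed as follows. By the adjusted p alone, 5 were called between the temperatures in old wild-type animals (0 with the fold threshold), 7 for the genotype in old animals at 20°C (3) and 7 at 25°C (1), 1 in young animals at 25°C (0), 4 between the temperatures in old *npr-8* mutants (2) and 4 in the genotype by temperature interaction of old animals (2). With marked values filled, 5 were called with age at 25°C in each genotype (3), and 3 in the genotype by temperature interaction of young animals (2), by *vit-2*, which was not called with its marking libraries left out. The filled call of *vit-6* with age in the wild type rests on 4 young libraries given the same number. For the genotype in young animals at 20°C, 1 was called with no filter and 1 with library size alone (2), and in young animals at 25°C 1 with no filter, RLE factors, DESeq2 or without the libraries that mark *vit-2*, where 6 genes were tested (0). With library size alone, 0 were called for the genotype in old animals at 25°C (1). Without 1 library the counts ran from 1 to 2 (young, 20°C), 0 to 1 (young, 25°C) and 0 to 2 (old, 25°C). The fold change of *rme-2* with age at 25°C in the wild type turned to 0.105 with library size alone, and without 1 library the sign turned for uncalled values: *vit-3* for the genotype in young animals at 20°C (-0.16 to 0.292), *vit-5* between temperatures in old *npr-8* mutants (-0.089 to 0.134), *vit-2* (-0.002 to 0.28), *vit-4* (-0.185 to 0.075) and *vit-6* (-0.096 to 0.182) with age in *npr-8* mutants at 20°C, and *vit-6* in the interaction of old animals (-0.105 to 0.12). With the replicate number as a block, 1 gene was called for the genotype in young animals at 20°C (2) and 1 at 25°C (0); the correlations of same-numbered libraries ran from -0.403 to 0.234 over 12 comparisons, and in 0 was every pair over 0.1, so the numbers do not pair the libraries. The causes of these changes were not tested.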
